A study of Homo sapiens with 12 samples.

Results

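LIN54 and 9 further genes of the DREAM and MuvB cell cycle complexes were followed in CD133+ and CD133- cells of gastric cancer lines: LIN9, LIN37 and LIN52, the pocket proteins RBL1 and RBL2, E2F1, E2F4 and TFDP1, and MYBL2. These 10 genes each had 1 row among the 34595 genes with a value, and all 10 passed the filter on low values that left 20147 genes for testing. LIN54 was chosen by its signal-to-noise ratio on these same arrays, which placed it among the genes higher in CD133+ cells, so its values are a description with no test. The other 9 were taken for their known place in the complexes. Expression was measured on Illumina HT-12 v3 arrays in 3 established gastric cancer cell lines, KATO-III, SNU-216 and SNU-601, all untreated and grown in RPMI1640 with calf serum. Each line was stained with a PE-labelled antibody to CD133 (the product of PROM1) and sorted into CD133+ cells, the brightest 10%, and CD133- cells, the dimmest 6%, with 2 arrays for each of the 6 populations. Cells between these gates were not measured, and nothing states whether the 2 arrays of a population came from separate cultures or sorts. The p-values within lines and between lines therefore measure the spread between 2 arrays, which may be technical. Those over all lines also take in how far the change between the fractions differs between lines. The description of the series names SNU201 where the arrays are labelled SNU-216, and the labels were followed.

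MuvB is a core of LIN9, LIN37, LIN52, LIN54 and the histone-binding protein RBBP4. In resting cells it joins the pocket proteins p130 (RBL2) or p107 (RBL1) with E2F4 and its partner DP1 (TFDP1), and the resulting DREAM complex represses cell cycle genes. When cells re-enter the cycle the pocket protein leaves, and MuvB binds B-Myb (MYBL2) and later FOXM1 to activate genes of G2 and mitosis. LIN54 is the subunit that binds DNA, at the cell cycle genes homology region (CHR), whereas E2F sites are found mainly at genes of G1 and S phase.

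The start regions of 4 members are printed because LIN54, LIN9 and LIN52 are the core subunits that were higher in CD133+ cells in at least 2 lines, and RBL2 is the member that fell most in KATO-III. Each runs 5′ to 3′ on the gene's strand, from 250 bases before to 50 after the transcript start listed first for the gene by RefSeq on GRCh38.p14, and capitals mark the letters of a CHR (LIN54 and RBL2) or of an E2F site (LIN9 and LIN52).
LIN54 (chr4:83010774-83011073, minus strand): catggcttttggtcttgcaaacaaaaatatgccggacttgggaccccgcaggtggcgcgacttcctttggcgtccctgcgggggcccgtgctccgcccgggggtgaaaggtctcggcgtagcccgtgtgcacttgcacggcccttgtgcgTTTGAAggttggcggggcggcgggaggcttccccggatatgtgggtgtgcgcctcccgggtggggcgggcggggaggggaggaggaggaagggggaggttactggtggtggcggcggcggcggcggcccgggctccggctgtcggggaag
LIN9 (chr1:226309454-226309753, minus strand): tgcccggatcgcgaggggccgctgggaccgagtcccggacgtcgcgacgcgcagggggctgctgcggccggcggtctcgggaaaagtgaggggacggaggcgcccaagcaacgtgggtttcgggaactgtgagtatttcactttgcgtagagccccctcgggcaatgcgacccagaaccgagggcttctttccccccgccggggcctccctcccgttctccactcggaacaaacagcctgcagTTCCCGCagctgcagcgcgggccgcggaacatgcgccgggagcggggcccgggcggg
LIN52 (chr14:74084706-74085005, plus strand): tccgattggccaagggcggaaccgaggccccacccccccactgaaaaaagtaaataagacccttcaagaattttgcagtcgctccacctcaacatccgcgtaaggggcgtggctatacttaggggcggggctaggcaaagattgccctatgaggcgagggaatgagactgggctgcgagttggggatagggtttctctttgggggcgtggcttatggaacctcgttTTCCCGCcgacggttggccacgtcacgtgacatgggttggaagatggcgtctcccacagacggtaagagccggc
RBL2 (chr16:53434221-53434520, plus strand): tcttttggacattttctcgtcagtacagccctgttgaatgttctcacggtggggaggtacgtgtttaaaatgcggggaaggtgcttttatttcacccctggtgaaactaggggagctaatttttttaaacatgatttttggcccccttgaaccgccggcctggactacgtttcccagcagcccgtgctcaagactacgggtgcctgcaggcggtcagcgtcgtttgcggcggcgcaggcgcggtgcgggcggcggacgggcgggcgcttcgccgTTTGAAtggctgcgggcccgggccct
The CHR was searched as TTTGAA and, in its other form, as TTCGAA. The E2F site was searched as TTCCCGC, with TTCGCGC and with TTGGCGC as further forms. Both strands were read, and matches of the 2 kinds cannot overlap in these letters. For LIN54 and LIN9 this start lies 2118 and 264 bases inside the outermost annotated start of the gene. The LIN54 region holds TTTGAA beginning 100 bases upstream of the start used, and the RBL2 region holds TTTGAA 25 bases after it. TTCCCGC begins 7 bases upstream of the start used for LIN9 and 24 bases upstream of that of LIN52. Of the 10 members, 2 had a CHR, against 16.6% of 27305 genes read the same way and 16.4% of all 35116 such regions, and 5 had an E2F match (LIN9, LIN52, RBL1, E2F1 and TFDP1), against 11.2% and 11.0%. The matches depend on the start: over all 15 starts listed for the members, LIN9 and LIN37 also had a CHR at another start. LIN9, LIN37 and RBL2 each had a start with neither motif beside another with a match, and the only starts of E2F4 and MYBL2 had neither. A match is a description of these letters, and binding was not measured.

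The deposited values are quantile-normalized intensities on a linear scale with a background subtracted, and 32.1% of them were at or below 0. Intensities under a floor of 32.7 were set to it before log2 was taken, and a gene was tested where it exceeded the floor on at least 2 arrays. The 2 arrays of a population correlated at 0.993 to 0.995, the 2 fractions of a line at 0.974 to 0.988, and arrays of different lines at 0.849 to 0.916 (Pearson's r across genes, which are not independent replicates). PROM1 was higher in CD133+ cells in each line, by 1.10 in KATO-III, 2.02 in SNU-216 and 1.86 in SNU-601 on the log2 scale. All 6 epithelial markers exceeded the floor on every array, with summed intensities of 46498 to 55381 in CD133+ and 47334 to 57823 in CD133- cells. Of the markers of other cell types, none of 3 endothelial, 2 of 4 leukocyte and 2 of 4 fibroblast genes exceeded the floor on any array. The leukocyte sums ran from -45.3 to 869.8 in CD133+ and from 1.85 to 1244 in CD133- cells and the fibroblast sums from 0.806 to 141 and from 2.56 to 178, while PTPRC and CD3E were at the floor on every array. The part of these genes in the results was not tested.

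LIN54 was higher in CD133+ cells of every line. Its intensities in KATO-III were 864 and 757 in CD133+ and 432 and 431 in CD133- cells. In SNU-216 they were 957 and 1025 against 623 and 588, and in SNU-601 LIN54 read 722 and 967 against 553 and 532. All 6 CD133+ arrays (722 to 1025) lay above all 6 CD133- arrays (431 to 623), an order that 0.352% of tested genes shared and that the choice of LIN54 favoured. The log2 change was 0.75 over all lines (SE 0.0895, n = 6 arrays per fraction), and within lines it was 0.91 in KATO-III, 0.71 in SNU-216 and 0.62 in SNU-601 (SE 0.124, n = 2 per population). The smallest of these rested on SNU-601, where the CD133+ arrays were furthest apart: LIN54 changed by 0.41 there without CD133+ replicate 2 and by 0.84 without CD133+ replicate 1. In RNA from a sorted population, a change in the share of cells with a transcript and a change in its amount per cell cannot be told apart.

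The ratio that chose LIN54 divides the difference of the fraction means by the sum of the fraction SDs over all arrays. It was 1.76 for LIN54, the rank of 8 from the top, and 1.62 to 2.09 with each array left out. Of all genes, 193 exceeded 1 and 139 lay below -1, and at the upper threshold MIR98 (1.001) was just inside and OTOF (0.9988) just outside. None of the other 9 members passed 1 or -1, where 1.06% of tested genes did.

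**Figure D1:**
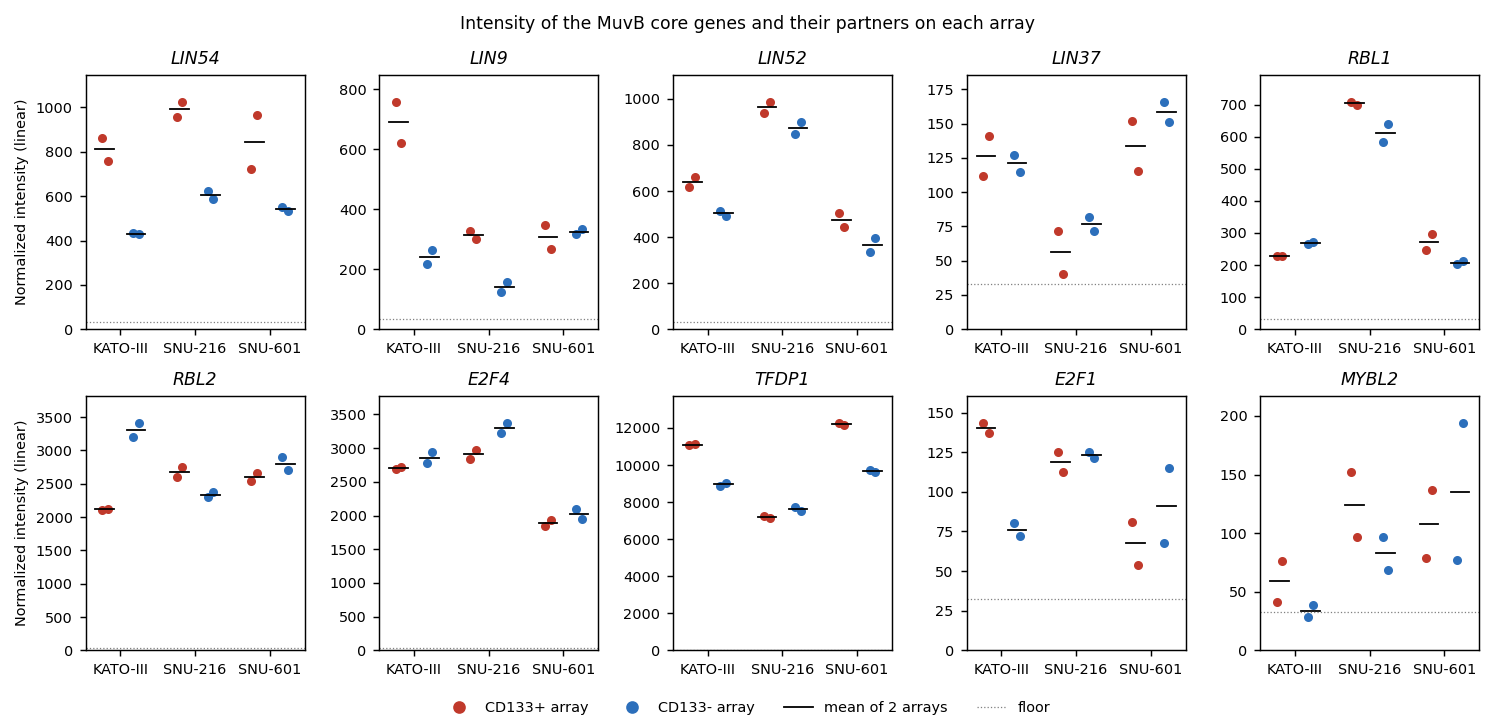
Intensity of the 10 member genes on each of the 12 arrays (linear vertical axes that start at 0, each with its own range), with CD133+ (red) and CD133- (blue) arrays of each line side by side, a bar at the mean of 2 arrays and a dotted line at the floor of 32.7. LIN54 is higher in CD133+ cells in all 3 lines, LIN9 in KATO-III and SNU-216, and RBL2 is lower in CD133+ cells of KATO-III.

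Over all lines, none of the 9 other members passed an adjusted p of 0.05 (limma with cell line as a block, adjusted over all 20147 genes), against 4.73% of all genes. At an unadjusted p under 0.05 there were 4, LIN9, LIN52, TFDP1 and E2F4, where 24.5% of all genes were. The median log2 change of all 9 was 0.14, and that of all genes was -0.013. With the population as a random block 3 had an unadjusted p under 0.05 and none passed, and with the arrays of a population averaged first there were 0 and 0. Within lines, where all 6 populations share 1 estimate of the spread, 5 of 9 passed in KATO-III (4 higher and 1 lower in CD133+ cells), against 39.3% of all genes (18.7% higher and 20.6% lower). In SNU-216 3 passed, with 2 higher and 1 lower, against 28.6% of all genes (14.6% and 14.0%). In SNU-601 3 passed, all higher, against 16.4% (8.59% and 7.78%). None of the 9 was called in all 3 lines, and LIN9, LIN52, TFDP1 and RBL2 were called in 2.

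**Figure D2:**
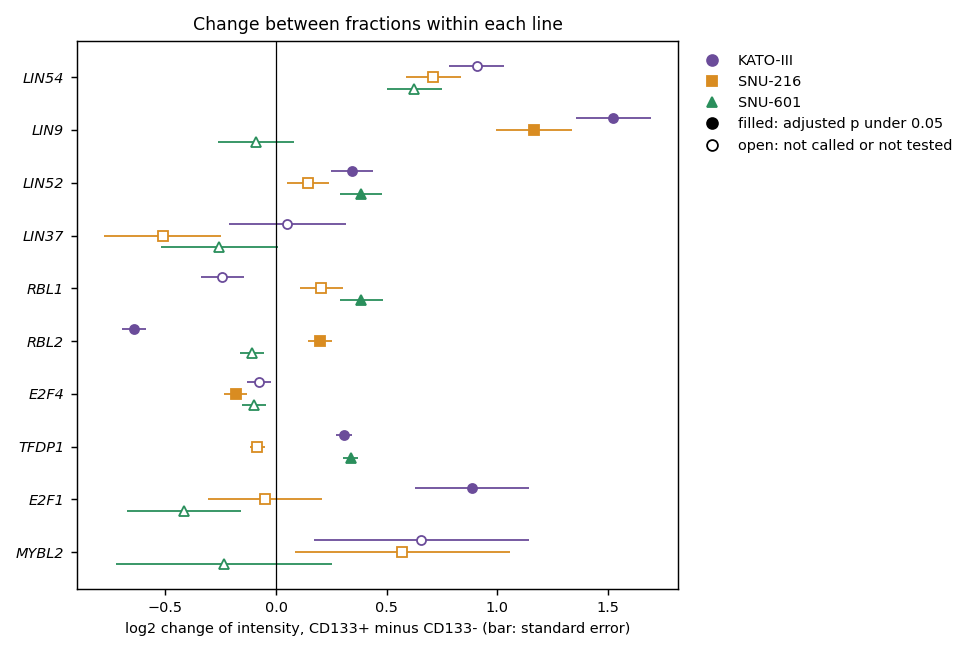
Log2 change of each member (CD133+ minus CD133-) in KATO-III, SNU-216 and SNU-601, with bars of 1 SE from the fit over 6 populations; filled points passed an adjusted p of 0.05 and LIN54 was not tested. LIN9 is above 1 in KATO-III and SNU-216 and near 0 in SNU-601, and RBL2 and TFDP1 have opposite signs between lines.

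Among the MuvB core subunits, LIN9, a scaffold of the complex, showed the widest range of changes. Both CD133+ arrays lie above both CD133- arrays by their order alone in 32.7% of tested genes in KATO-III, 30.0% in SNU-216 and 26.6% in SNU-601, and below them in 38.0%, 31.0% and 28.3%, which is the background to each statement that the fractions of 1 line did not overlap. Its intensities in KATO-III were 758 and 620.2 in CD133+ and 216 and 263 in CD133- cells, and in SNU-216 they were 326 and 301 against 125 and 156. LIN9 in SNU-601 read 348 and 269 in CD133+ and 318 and 333 in CD133- cells, so the fractions overlapped in that line alone. The log2 change was 1.52 in KATO-III (SE 0.17, adjusted p = 0.000135) and 1.17 in SNU-216 (adjusted p = 0.00103), and it was -0.090 in SNU-601 (adjusted p = 0.854). The change differed between the lines (adjusted p = 0.00146), as it did for 5 of the 9 members and 44.4% of all genes. Between single pairs of lines it differed for 3 members in SNU-216 against KATO-III, 4 in SNU-601 against KATO-III and 3 in SNU-601 against SNU-216, beside 32.0%, 30.1% and 28.2% of all genes. SNU-601 differed from KATO-III by -1.61 (adjusted p = 0.00115) and from SNU-216 by -1.26 (adjusted p = 0.00449), whereas the difference of -0.36 between SNU-216 and KATO-III did not pass (adjusted p = 0.313). Over all lines LIN9 was 0.87 higher (SE 0.232, adjusted p = 0.0561), and it passed without SNU-601 CD133+ replicate 2 (1.03, adjusted p = 0.03). By level, LIN9 was highest in KATO-III CD133+ cells, 1.07 above the next population (adjusted p = 0.000485), and lowest in SNU-216 CD133- cells. The SNU-601 populations and SNU-216 CD133+ cells between them did not differ beyond their spread (adjusted p = 0.861 and 0.945).

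LIN52, the subunit whose phosphorylation by DYRK1A promotes DREAM assembly, moved less but in 1 direction. It read 618 and 660.5 in CD133+ against 515 and 492 in CD133- cells of KATO-III. LIN52 read 940.3 and 987 against 846 and 898 in SNU-216, and 503 and 446 against 333 and 395 in SNU-601. Both CD133+ arrays lay above both CD133- arrays in each line, an order found in 3.73% of tested genes. LIN52 rose by 0.34 in KATO-III (SE 0.0945, adjusted p = 0.0182) and by 0.38 in SNU-601 (adjusted p = 0.0252), and its change in SNU-216 was 0.14 (adjusted p = 0.325). The changes were not shown to differ between lines (adjusted p = 0.319), and over all lines LIN52 was 0.29 higher (SE 0.0792, adjusted p = 0.0579). The KATO-III call was lost without CD133+ or CD133- replicate 2 of that line (adjusted p = 0.102 and 0.0929), and the SNU-601 call without CD133+ or CD133- replicate 1 (adjusted p = 0.14 and 0.131). LIN52 separated the lines more than the fractions, since SNU-216 stood 0.69 above KATO-III (adjusted p = 1.23e-05) and 1.14 above SNU-601, the difference of SNU-601 minus SNU-216 being -1.14 (adjusted p = 3.09e-07).

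LIN37, which is needed for repression by DREAM, was dim and passed in no line. In KATO-III it read 112 and 141 in CD133+ and 127 and 115 in CD133- cells. LIN37 read 71.8 and 40.3 against 81.9 and 71.9 in SNU-216, and 152 and 116 against 166 and 151 in SNU-601. The fractions overlapped in KATO-III and SNU-601, and in SNU-216 both CD133+ arrays lay just below both CD133- arrays. The log2 changes of LIN37 were 0.05, -0.51 and -0.26 in the order above (SE 0.265, adjusted p of 0.204 at the lowest), and 1 SE was nearly as large as the changes seen for LIN52. Without SNU-216 CD133+ replicate 1, the brighter of that pair, the SNU-216 change was -0.93, and without CD133+ replicate 2 it was -0.09. The larger value rests on 1 CD133+ array at 40.3, near the floor. LIN37 was lower in SNU-216 than in KATO-III, by a log2 difference of -0.94 (adjusted p = 0.00173).

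The pocket proteins RBL1 (p107) and RBL2 (p130) moved differently from each other and between lines. RBL2, the pocket protein of resting cells, read 2108 and 2127 in CD133+ and 3196 and 3413 in CD133- cells of KATO-III. RBL2 read 2608 and 2749.8 against 2297 and 2377 in SNU-216, and 2546 and 2657 against 2906 and 2700.2 in SNU-601. RBL2 fell by 0.64 on the log2 scale in KATO-III (SE 0.0542, adjusted p = 2.91e-05) and rose by 0.20 in SNU-216 (adjusted p = 0.0245). In SNU-601 its change was -0.11 (adjusted p = 0.242), although both CD133+ arrays were again below both CD133- arrays. The difference between the lines had an adjusted p of 0.000132, and SNU-216 minus KATO-III was 0.84 (adjusted p = 7.59e-05). The SNU-216 call of RBL2 was lost without CD133+ replicate 2, CD133- replicate 1 or CD133- replicate 2 of that line (adjusted p = 0.136, 0.118 and 0.0561). RBL2 was also the only 1 of the 9 members whose level did not pass the test of a difference between lines (adjusted p = 0.065), a test passed by 72.3% of all genes. Its order ran from KATO-III CD133- cells, which stood 0.24 above the next population (adjusted p = 0.00521), down to KATO-III CD133+ cells, so that the fractions of 1 line spanned the whole range.

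RBL1, the pocket protein of cycling cells and itself an E2F target, was set mainly by line. It read 227 and 227 in CD133+ and 266 and 272 in CD133- cells of KATO-III. RBL1 read 708 and 699 against 582 and 640.3 in SNU-216, and 247 and 298 against 203 and 212 in SNU-601. The fractions did not overlap in any line, with CD133+ cells lower in KATO-III and higher in the other lines. Taken singly, these orders were found in 38.0% of tested genes in KATO-III, 30.0% in SNU-216 and 26.6% in SNU-601. The share of genes apart in every line in either direction was not counted. RBL1 rose by 0.39 in SNU-601 (SE 0.0971, adjusted p = 0.0275), with changes of -0.24 in KATO-III (adjusted p = 0.0817) and 0.20 in SNU-216 (adjusted p = 0.165), and the lines differed (adjusted p = 0.0126). The SNU-601 call was lost without CD133+ replicate 2, CD133- replicate 1 or CD133- replicate 2 of that line (adjusted p = 0.129, 0.115 and 0.0745). Without SNU-601 CD133+ replicate 1 or 2, the unchanged KATO-III value of RBL1 passed (adjusted p = 0.033 and 0.034). SNU-216 stood 1.41 above KATO-III (adjusted p = 8.5e-08), a larger difference than that between the fractions of any line.

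E2F4, the main E2F of the DREAM complex, changed by at most 0.18 on the log2 scale in either direction in any line. In KATO-III it read 2695 and 2725 in CD133+ and 2779 and 2938 in CD133- cells. E2F4 read 2843 and 2975 against 3228 and 3375 in SNU-216, and 1846 and 1934 against 2100.0 and 1950.3 in SNU-601. Both CD133+ arrays lay below both CD133- arrays in each line, as in 3.64% of tested genes. E2F4 fell by 0.18 in SNU-216 (SE 0.0534, adjusted p = 0.0315), a call lost when any of the 4 SNU-216 arrays was left out (adjusted p = 0.0529 to 0.162). The changes in KATO-III and SNU-601 were -0.08 and -0.10 (adjusted p = 0.314 and 0.275), and over all lines E2F4 changed by -0.12 (SE 0.0488, adjusted p = 0.167). Its level was lower in SNU-601 than in SNU-216, by a log2 difference of -0.66 (adjusted p = 2.55e-07).

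TFDP1 (DP1), the partner that E2F proteins need to bind DNA, was brighter in CD133+ cells of 2 lines. It read 11054 and 11109 in CD133+ and 8859 and 9049 in CD133- cells of KATO-III. TFDP1 read 7273 and 7121 against 7723 and 7534 in SNU-216, and 12269.9 and 12159 against 9704 and 9639 in SNU-601. The fractions were apart in every line, with SNU-216 in the opposite order. Taken singly, these orders were found in 32.7% of tested genes in KATO-III, 31.0% in SNU-216 and 26.6% in SNU-601, and their joint share was not counted. TFDP1 rose by 0.31 in KATO-III (SE 0.0349, adjusted p = 0.00015) and by 0.34 in SNU-601 (adjusted p = 0.000621), and its change in SNU-216 was -0.08 (adjusted p = 0.113). The change differed between the lines (adjusted p = 0.000294), with SNU-216 minus KATO-III at -0.39 (adjusted p = 0.000422) and SNU-601 minus SNU-216 at 0.42 (adjusted p = 0.000396). By level, SNU-601 CD133+ cells were highest and SNU-216 CD133+ cells lowest, and each neighbouring pair differed except the 2 SNU-216 fractions.

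The activators were dim, and their spread was wide. E2F1, which drives S phase genes when released from RB1, read 143 and 137 in CD133+ and 80.0 and 72.1 in CD133- cells of KATO-III. E2F1 read 125 and 113 against 125 and 121 in SNU-216, and 80.9 and 54.1 against 67.6 and 115 in SNU-601. It rose by 0.89 in KATO-III (SE 0.258, adjusted p = 0.0238), while the fractions overlapped in SNU-216 (-0.05, adjusted p = 1) and SNU-601 (-0.42, adjusted p = 0.353). The lines differed (adjusted p = 0.0401), with SNU-601 minus KATO-III at -1.30 (adjusted p = 0.0256). The KATO-III call of E2F1 was lost when any of the 4 KATO-III arrays was left out (adjusted p = 0.0648 to 0.11).

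MYBL2 (B-Myb), the partner with which MuvB activates mitotic genes, exceeded the floor on 11 of the 12 arrays and passed in no line. It read 41.4 and 76.5 in CD133+ and 28.2 and 38.9 in CD133- cells of KATO-III. MYBL2 read 152 and 96.8 against 96.9 and 68.8 in SNU-216, and 78.8 and 137 against 76.8 and 194 in SNU-601. The 2 arrays of a population lay far apart, furthest in SNU-601 CD133- cells, and the fractions overlapped in SNU-216 and SNU-601. The log2 changes of MYBL2 were 0.66, 0.57 and -0.24 in that order (SE 0.487, adjusted p = 0.345, 0.473 and 0.88). At this brightness a change of the size seen for LIN54 could not be told from none. MYBL2 was higher in SNU-216 and in SNU-601 than in KATO-III, by 1.15 and 1.33 on the log2 scale (adjusted p = 0.0161 and 0.00835).

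Most members differed in level between the lines. The level differed between the lines for 8 of the 9 members, and 72.3% of all genes passed this test. Between single pairs it differed for 7 members in SNU-216 against KATO-III, 5 in SNU-601 against KATO-III and 8 in SNU-601 against SNU-216, beside 62.0%, 58.6% and 56.5% of all genes. The order of LIN54 followed the fraction, with the means of SNU-216, SNU-601 and KATO-III CD133+ cells first. The CD133- cells of the same lines came after them, also in that order. Among the CD133+ populations the order of lines was not resolved. SNU-216 stood 0.25 above SNU-601, and SNU-601 0.05 above KATO-III (SE 0.124), with overlapping arrays in both pairs. The ratio that chose LIN54 favours an order by fraction, and the correlations that follow compare genes with this chosen pattern. Over the 6 population means, Pearson's r with LIN54 was highest for LIN52 (0.496) and LIN9 (0.421) and lowest for RBL2 (-0.576) and LIN37 (-0.466), values that rest on 6 points from 3 lines and carry no test. Among 11673 genes above the floor on every array, the patterns most like that of LIN54 belonged to VANGL1 (r = 0.969), PAQR3 (0.959) and the transcripts HS.374832 (0.952) and HS.551330 (0.947). For MYBL2 no such genes were sought, since 1 array was below the floor.

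Of 14 further genes of the pathway (other subunits, partners and kinases), 13 were tested and TFDP3 stayed at the floor. Over all lines 1 was higher in CD133+ cells and none lower, against 4.73% of all genes in either direction. This was E2F7, a repressor E2F of late cell cycle, which read 1058 and 1078 against 875 and 876 in KATO-III, 933 and 1184 against 502 and 512 in SNU-216, and 2727 and 2529.7 against 1811 and 2199.6 in SNU-601. Its log2 change was 0.58 (SE 0.125, adjusted p = 0.0308). Both CD133+ arrays lay above both CD133- arrays in each line, as in 3.73% of tested genes. With the arrays of a population averaged first, or with populations as a random block, E2F7 did not pass (adjusted p = 0.796 and 0.236). Within lines, 3 rose and 2 fell in KATO-III (beside 18.7% and 20.6% of all genes), 5 rose and 3 fell in SNU-216 (14.6% and 14.0%), and 4 rose and none fell in SNU-601 (8.59% and 7.78%).

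RBBP4, the MuvB subunit that binds histones, fell by 0.51 in SNU-216 (adjusted p = 0.00175), from 512 and 597 in CD133- to 402 and 374 in CD133+ cells. Its changes were -0.19 in KATO-III and 0.07 in SNU-601 (adjusted p = 0.106 and 0.675). DYRK1A, the kinase that phosphorylates LIN52, rose by 0.65 in SNU-216 (adjusted p = 0.000421), with changes of -0.09 and -0.19 in KATO-III and SNU-601 that did not pass. FOXM1, which joins MuvB in G2, rose by 0.44 in KATO-III (adjusted p = 0.0112), and its changes in SNU-216 and SNU-601 were 0.13 and 0.02. FOXM1 was also brightest in KATO-III, at 1132 to 1629, where the other lines read 585 to 770.2. E2F3, an activator E2F, rose by 0.53 in KATO-III and 0.27 in SNU-601 and fell by 0.46 in SNU-216, the only partner called in all 3 lines. The change differed between lines for 9 of the 13, beside 44.4% of all genes, and E2F3 had the smallest adjusted p (1.03e-05).

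**Figure D3:**
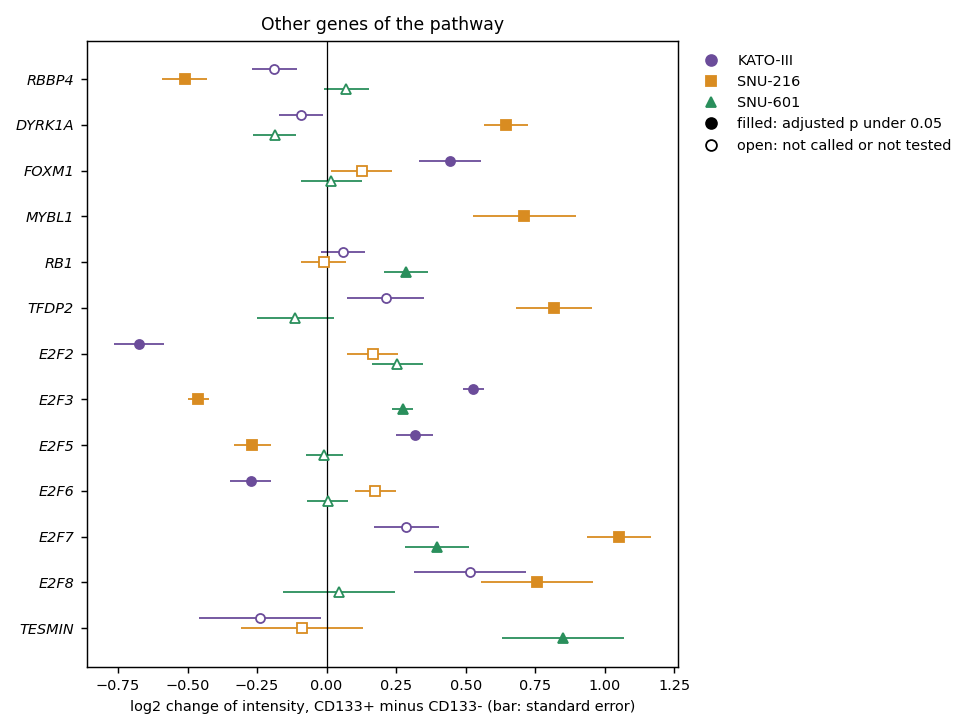
Log2 change (CD133+ minus CD133-) of the pathway genes outside the 10 members in each line, with bars of 1 SE; filled points passed an adjusted p of 0.05, and a gene at the floor on all 4 arrays of a line has no point there. E2F7 is above 0 in every line, and E2F3 is above 0 in KATO-III and SNU-601 and below 0 in SNU-216.

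Genes that these complexes control were followed as 2 lists, 48 genes of G2 and mitosis and 48 of G1 and S phase, of which 47 and 48 were tested. Over all lines 23 of the G2 and mitosis genes rose in CD133+ cells and none fell, with a median log2 change of 0.35 beside -0.013 for all genes, of which 2.62% were higher and 2.11% lower. Of the G1 and S phase genes 15 rose and none fell, with a median of 0.31. None of either list passed with the arrays of a population averaged first (lowest adjusted p = 0.796) or with the population as a random block (lowest adjusted p = 0.0903), where 16 and 7, and 28 and 26, had an unadjusted p under 0.05. Of the listed genes, 7 of G2 and mitosis (CDC2, CCNB1, NEK2, HMMR, TOP2A, CDCA3 and CKAP2) and RFC5 of G1 and S had a ratio above 1 on these arrays, so their direction is not independent of the rule that chose LIN54.

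By line, the G2 and mitosis genes rose in the smallest number in SNU-216. In KATO-III 33 rose and 2 fell (median 0.51), and in SNU-601 37 rose and 1 fell (median 0.45). In SNU-216 14 rose and 4 fell (median 0.09). The median change of all genes was 0 in each line, and 18.7%, 8.59% and 14.6% of all genes rose in KATO-III, SNU-601 and SNU-216. Genes at the floor on all 4 arrays of a line enter that median with a change of exactly 0. Most listed genes exceeded the floor on every array, as did 11674 of the 20147 genes tested, so the lists and all genes are unlike in brightness. For the G1 and S phase genes the counts were 32 up and 2 down in KATO-III (median 0.38), 20 up and 3 down in SNU-216 (median 0.17) and 23 up and none down in SNU-601 (median 0.26). The change differed between the lines for 32 of the 47 and 29 of the 48 genes, beside 44.4% of all genes.

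The called G2 and mitosis genes with the largest changes over all lines were CDC2 (now CDK1, the mitotic kinase), the checkpoint genes BUB1 and MAD2L1, and CCNB1 (cyclin B1, the partner of CDK1). CDC2 was 0.85 higher (SE 0.0731, adjusted p = 0.00114), with similar changes of 0.96, 0.89 and 0.71 in KATO-III, SNU-216 and SNU-601. BUB1 was 0.80 higher (adjusted p = 0.0256), CCNB1 0.74 (adjusted p = 0.0387) and MAD2L1 0.64 (adjusted p = 0.0355), and each of these had its smallest change in SNU-216. CCNB1 read 987 and 902 in CD133+ and 999 and 857 in CD133- cells of that line, a change of 0.03, beside 1.33 in KATO-III and 0.86 in SNU-601. Of the called G1 and S phase genes the largest changes were those of the DNA replication genes POLE2 (0.66, adjusted p = 0.0049), RFC3 (0.57, adjusted p = 0.0177), RFC5 (0.54, adjusted p = 0.002) and PRIM1 (0.52, adjusted p = 0.028). RFC5 changed by 0.53, 0.56 and 0.53 in KATO-III, SNU-216 and SNU-601, while PRIM1 had its smallest change, 0.12, in SNU-601. A CHR was present in 27 of the 39 matched G2 and mitosis regions (69.2%) and in 2 of 38 of the G1 and S phase regions (5.26%), and an E2F match in 25.6% and 76.3% of them. Of 27305 genes read the same way, 16.6% had a CHR and 11.2% an E2F match. Both lists were drawn from genes known to be bound by these complexes, so their choice favoured this split.

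**Figure D4:**
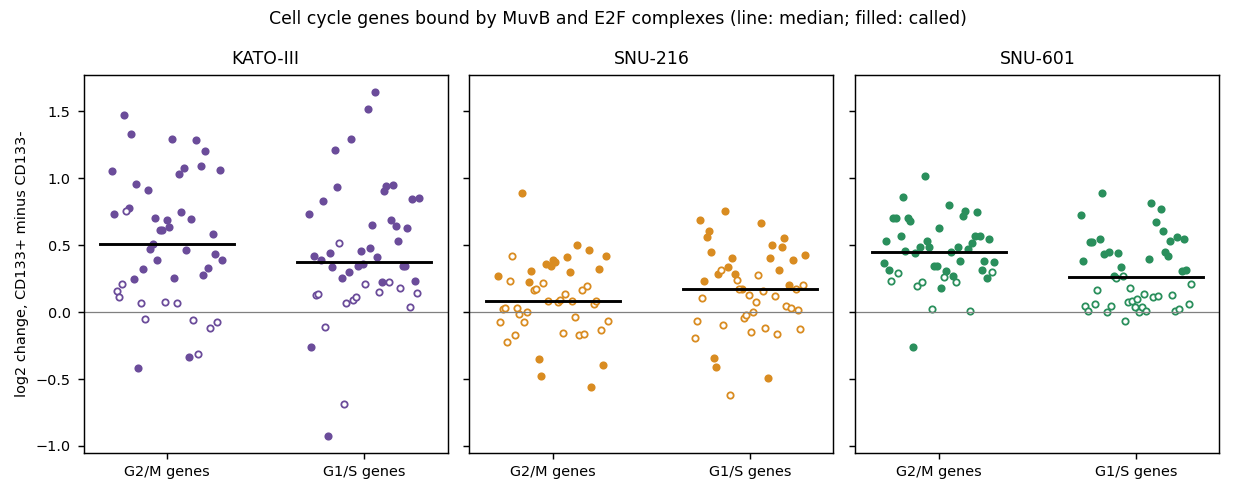
Log2 change (CD133+ minus CD133-) of each tested G2 and mitosis gene and each G1 and S phase gene in KATO-III, SNU-216 and SNU-601, 1 point per gene, filled where it passed an adjusted p of 0.05, with the median of each list as a line. The medians of the G2 and mitosis genes are 0.51, 0.09 and 0.45, and those of the G1 and S phase genes are 0.38, 0.17 and 0.26.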

How the data were processed

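Gene expression was measured on 12 arrays from 6 sorted populations, with groups taken from the array labels. The authors deposited quantile-normalized intensity values with a row per gene symbol, made with BeadStudio per the submitters' processing notes (version not given in the sources used here). The background method and the rule that joined several probes into 1 row are not given in the sources used here, and where probes of different transcript forms were joined a row holds their mixture. Intensities below 32.7, the magnitude that the 1st percentile has over the table, were raised to that floor and log2-transformed. Between 16320 and 16474 genes exceeded the floor on an array, and the number of arrays limits the precision. Fractions were compared with limma 3.58.1 in R 4.3.3 (lmFit, eBayes with a mean-variance trend), with cell line as a block over all lines (8 residual degrees of freedom) and with 6 population means within lines (6). Benjamini-Hochberg adjustment ran over all 20147 genes, with a threshold of 0.05. Figures and promoter searches used Python 3.11.15, pandas 2.3.3, numpy 2.4.6 and matplotlib 3.10.9. The test steps were tested on simulated data. The members, the gene lists and the tests were chosen with earlier results of these data known. Named genes were the 10 members, every partner gene, the 4 largest called changes over all lines per direction in each target list, the 5 genes closest in pattern to LIN54 and, where possible, to MYBL2, and PROM1, and 1 gene under this rule is not reported here. CD3E and PTPRC are named outside this rule, as are the genes at the threshold of the ratio and the listed genes past it. Alternatives covered the floor, an offset, normalization, centring, filters, the variance trend, the replicate and population blocks, averaging, and leaving out each array. Replicate numbers did not pair the arrays (deviations of same-numbered arrays correlated at -0.0116 to 0.0276 over 15 pairs of populations).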

Additional observations from a re-analysis of the deposited data

Results flagged for a closer look

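For 5 of the 9 tested members the change between the fractions differed between KATO-III, SNU-216 and SNU-601 in the test of the line by fraction interaction (limma, adjusted over all genes, 44.4% of which passed). For LIN9 the adjusted p was 0.00146, with changes of 1.52, 1.17 and -0.090 in that order of lines. For RBL2 it was 0.000132, with changes of -0.64, 0.20 and -0.11. For TFDP1 it was 0.000294, with changes of 0.31, -0.08 and 0.34. For RBL1 it was 0.0126, with changes of -0.24, 0.20 and 0.39. For E2F1, whose intensities were near 100 or below in several populations, it was 0.0401, with changes of 0.89, -0.05 and -0.42. The reasons for these differences were not tested. No member had an array apart from the other 5 of its fraction by Dixon's test, over 20 groups of 6 arrays. Each group joined the arrays of all lines, so differences between lines widened its range. A replicate apart from the other of its population could therefore be missed.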

How the results depend on the processing

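The arrays per population are few, and p-values within lines and between lines cover the spread between 2 arrays only. Those over all lines also take in how far the change differs between lines. In the main fit over all lines 953 of 20147 genes were called. This was 1147 of 13929 with a floor of 100 and 1238 of 11674 with only genes above the floor on all 12 arrays. It was 1174 of 20147 with an offset of 100 and 958 of 20147 after a second quantile normalization. The count of members called over all lines, 0, became 2 (LIN9 and LIN52) with that floor and with that filter, where MYBL2 was not tested. It became 1 with an offset of 100 in place of the floor (LIN9) and 1 after a second quantile normalization (LIN52), and was 0 to 1 with each array left out, the 1 being LIN9 without SNU-601 CD133+ replicate 2, CD133- replicate 1 or CD133- replicate 2. Leaving out each array gave 3 to 6 members called in KATO-III (3 without CD133+ or CD133- replicate 2 of that line), 1 to 3 in SNU-216 (1 without its CD133+ replicate 2, CD133- replicate 1 or CD133- replicate 2), and 1 to 3 in SNU-601 (1 without its CD133- replicate 1). Without the mean-variance trend 1 member was called in SNU-216 and 15 of the G2 and mitosis genes over all lines. Members with a changed effect between lines numbered 4 to 5, and with a changed level 7 to 9, when each array was left out. The G2 and mitosis count of 23 was 8 to 21 and the G1 and S count of 15 was 7 to 14 with each array left out, and the counts without KATO-III CD133+ replicate 1, CD133+ replicate 2, CD133- replicate 1 and CD133- replicate 2 were 8, 9, 8 and 10 for the former and 8, 7, 8 and 9 for the latter. Both became 0 with the arrays of a population averaged and with populations as a random block. After subtracting each line's mean, 2 members passed the ratio of 1 or -1 (LIN52 and E2F4). The share of all genes past the ratio after that step was not counted.

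Replicate numbers did not pair the arrays. With them as a replicate block, 13 of the G2 and mitosis genes and 11 of the G1 and S genes were called over all lines, the members' counts were 0 over all lines, 5, 3 and 3 in KATO-III, SNU-216 and SNU-601, and 4 for a change that differed between lines, and 471 of all genes were called in place of 953.

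Changes of sign occurred only in members that had not passed, when 1 array was left out. They were LIN9 in SNU-601 without CD133+ replicate 2 (0.096, in a range from -0.28), LIN37 in KATO-III without CD133+ replicate 2 (-0.12, in a range up to 0.22) or CD133- replicate 2 (-0.023), E2F1 in SNU-216 without CD133+ replicate 2 (0.026, in a range from -0.13), and MYBL2 in SNU-601 without CD133+ replicate 1 (0.16) or CD133- replicate 2 (0.43, in a range from -0.90).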

Other observations

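Among the pathway genes, 2 were detected mainly in SNU-216. MYBL1 (A-Myb, a relative of MYBL2) read 364 and 256 in CD133+ and 212 and 164 in CD133- cells of SNU-216, and was below the floor on all 8 arrays of KATO-III and SNU-601. Its log2 change in SNU-216 was 0.71 (limma, adjusted p = 0.0184, with a spread pooled over all populations). Set to the floor, the KATO-III and SNU-601 populations had an SD of 0, beside 0.358 and 0.262 in SNU-216 CD133+ and CD133- cells. That p therefore understates the spread within SNU-216, and MYBL1 is among the partners counted as rising there. MTL5, the array's name for TESMIN, the paralog of LIN54 with the same type of DNA-binding domain, read 484 to 522 in SNU-216 and 23.1 to 74.4 on the arrays of the other lines. The MTL5 level was higher in SNU-216 than in KATO-III (adjusted p = 3.38e-08), and its change between the fractions of SNU-216 was -0.09 (adjusted p = 0.893, with a spread pooled over all populations), with both CD133+ arrays below both CD133- arrays. In SNU-601 the MTL5 means were 60.5 in CD133+ and 24.6, below the floor, in CD133- cells. Those of KATO-III were 34.8 and 44.0, near the floor.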
